A study of Mus musculus with 112 samples.

Results

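This account follows a set of interferon-stimulated genes, genes whose transcription rises when a cell receives an interferon signal, through 3 sorted cell types of the mouse intestinal crypt at a young and an old age. Members were taken by gene symbol. Of 48 symbols listed, 46 paired with a row among the 32285 genes of the counts. Mx1 and Mx2 did not pair and were not used here. Intestinal stem cells (ISCs) had been sorted as Lgr5-GFP high, progenitors as Lgr5-GFP medium to low, both with high Epcam and low CD24, and Paneth cells by strong CD24, large side scatter and absence of GFP, all from crypts of the proximal portion of the small intestine. All mice were of strain C57BL/6 with the genotype Lgr5-eGFP-IRES-CreERT2, so every group carried the same reporter, which expresses GFP and a tamoxifen-dependent recombinase from the locus of the stem cell gene Lgr5.  There were 11 young and 12 aged ISC samples, 10 and 10 progenitor samples and 12 and 12 Paneth samples, each from 1 animal, with 2 or 3 technical libraries of each Paneth sample summed. Nothing in the labels says that litters or cages were shared or apart. Young mice were 2 to 3 months old (ISCs 2 months) and aged mice 23 to 27 months, and each age held 5 to 7 males and 5 or 6 females per cell type.

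Interferons are secreted signals of antiviral defence. Type I interferons (alpha, beta and relatives) and type III interferons (lambda) activate a complex with STAT2 and IRF9 that binds interferon-stimulated response elements, while type II interferon (gamma) acts through the receptor chains IFNGR1 and IFNGR2 and leads to binding at gamma-activated sites. The target genes encode sensors of foreign nucleic acid, enzymes that block translation or degrade RNA, GTPases that attack the vacuoles of intracellular pathogens, and membrane proteins that hinder the entry or release of virus. In the gut, epithelial cells are known as the main responders to type III interferon, and stem cells of many tissues are known to express part of this gene set without infection.

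The RefSeq promoter table (GRCm38.p6, 250 bases before to 50 after each start) held 37 of the 48 members. An ISRE-type motif, GAAA followed by any 2 bases and GAAA again, on either strand, was found in 22 of 37 members (59.5%), against 1079 of 27025 genes (3.99%). A GAS-type motif, TTC, any 3 bases and GAA, which has the same form on both strands, was found in 12 of 37 (32.4%), against 9.55% of genes, and both motifs in 7 (18.9%), against 0.614%. Overlapping matches were counted as separate matches of 1 promoter. The windows below show the members to which the results return, 5′ to 3′ on the coding strand, with motif matches in capitals.
Apobec3, chr15:79892243-79892302, plus strand: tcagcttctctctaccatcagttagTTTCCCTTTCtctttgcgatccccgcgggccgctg
Ifit1, chr19:34640760-34640838, plus strand: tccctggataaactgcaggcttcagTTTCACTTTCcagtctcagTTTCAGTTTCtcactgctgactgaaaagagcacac
Isg15, chr4:156200850-156200921, minus strand: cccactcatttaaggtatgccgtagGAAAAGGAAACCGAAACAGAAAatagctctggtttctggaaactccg
Oas1a, chr5:120907526-120907570, minus strand: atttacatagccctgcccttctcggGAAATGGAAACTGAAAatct
Oas1g, chr5:120887614-120887656, minus strand: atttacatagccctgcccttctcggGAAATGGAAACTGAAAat
Igtp, chr11:58199486-58199555, plus strand: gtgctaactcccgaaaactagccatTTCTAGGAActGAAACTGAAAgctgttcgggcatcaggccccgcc
Irgm2, chr11:58214877-58214947, plus strand: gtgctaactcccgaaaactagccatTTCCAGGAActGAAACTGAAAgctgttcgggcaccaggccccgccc
In Apobec3 and Ifit1 the ISRE-type motif lies on the other strand, so it reads TTTC, 2 bases and TTTC here. Isg15 holds 3 overlapping ISRE-type matches and Ifit1 holds 2 separate ones. The neighbours Igtp and Irgm2 share a GAS-type match followed by an ISRE-type match, and Oas1a and Oas1g share the same pair of overlapping ISRE-type matches. In Ifitm3 the matches lie after the annotated start, their first bases 3, 14 and 20 from it. Of the 46 promoter windows of these genes, 33 had the 20 bases after their start inside a GENCODE transcript of the gene, so for the others the start may be another one than the libraries report. The windows of Oas1a and Irgm2 shown above are among these others.

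**Figure D1:**
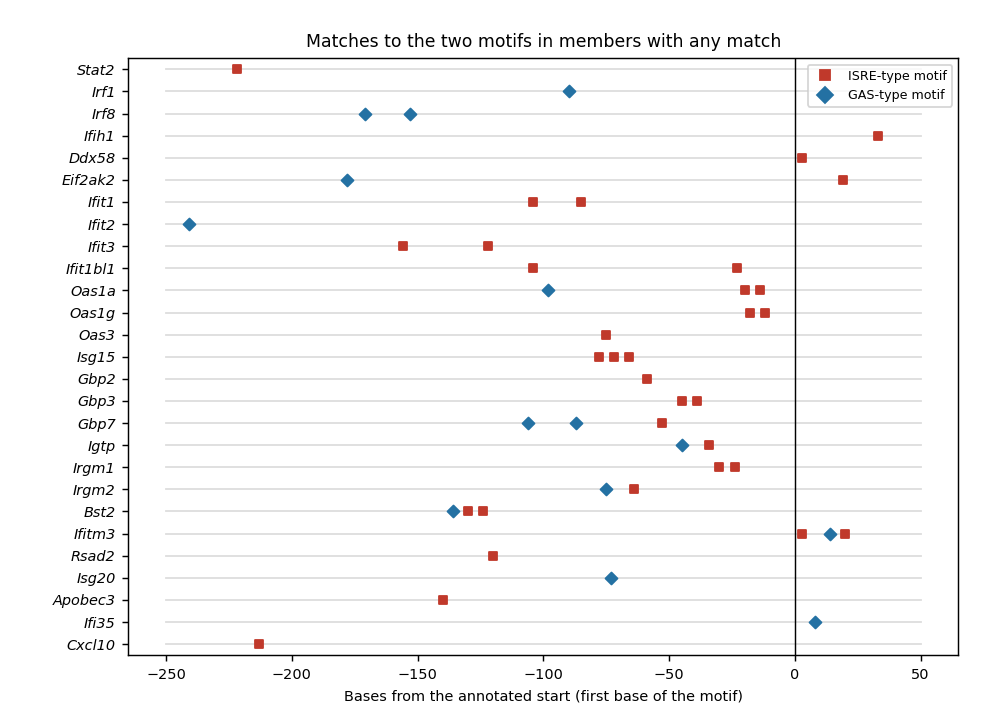
Positions of ISRE-type (red squares) and GAS-type (blue diamonds) motif matches in members with at least 1 match; the x axis is the distance of the motif's first base from the annotated start in bases, the y axis lists the members, and grey lines span the window searched, 250 bases before to 50 after. ISRE-type matches were found in 22 of 37 members; in Ifitm3 all matches lie after the start.

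Levels are given as CPM, counts scaled to a common library total, after TMM scaling over all 67 samples together, so that the 3 cell types share 1 scale, as mean ± SD over animals. The libraries read the 3′ ends of transcripts and are not divided by transcript length, so each gene is compared with itself across samples and not with other genes. Counts per sample ran from 2.18 to 11.8 M (M for mega), and 1 count was worth 0.0911 to 0.722 CPM. Mitochondrially encoded transcripts took 56.6 ± 10.2% of Paneth counts (n = 24), against 5.94 ± 1.74% in ISCs (n = 23) and 4.30 ± 1.33% in progenitors (n = 20). Summed marker genes give a check of the gates. The 8 stem cell markers summed to means of 9604 CPM (ISCs), 1321 (progenitors) and 2977 CPM (Paneth cells), the 5 Paneth markers to 386, 1124 and 174202 CPM, and goblet cell markers to 798, 20460 and 4716 CPM. Olfm4 had 7571 CPM in young ISCs against 1075 in young progenitors, and Lyz1 57988 CPM in young Paneth cells against 154 in young ISCs. Summed markers of immune cells were 5.35 to 291 CPM per ISC sample, 5.69 to 23.6 per progenitor sample and 54.7 to 580 per Paneth sample, and summed tuft cell markers 1.5 to 21.4, 3.91 to 21.3 and 210 to 1636 CPM. In bulk samples, fewer cells of a type and less RNA per cell cannot be told apart. The 67 samples carry 36 animal names, of which 8 gave all 3 cell types, 15 gave a pair and 13 gave 1.

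All 46 members had reads, from 207 to 88151 counts over all samples. With detection set at a mean of 1 CPM in a cell type, ISCs had 38 members detected, progenitors 40 and Paneth cells 43, and 35 were detected in all 3. At a mean of 5 CPM these numbers were 24, 28 and 28. Ifit3, an RNA-binding antiviral protein, was below 1 CPM in each cell type. Members below 1 CPM in ISCs were Ifit1, Ifit3, Oas1g, Oas2, Oas3, Isg15, Usp18 and Rsad2, which include genes that are among the best-known reporters of type I interferon signalling. In progenitors these were Ifit2, Ifit3, Isg15, Iigp1, Rsad2 and Cxcl10, and in Paneth cells Ifit2, Ifit3 and Iigp1. Isg15, which encodes a ubiquitin-like modifier, had 0.611 ± 0.938 CPM in young and 0.922 ± 1.15 in aged ISCs, 1.00 ± 0.726 and 0.960 ± 0.643 in progenitors, and 2.40 ± 2.19 and 1.70 ± 2.58 in Paneth cells. Ifitm3, Irf1 and Irf8 were the 3 members with a mean of at least 100 CPM in each cell type. ISCs had reads of 28 members in every sample, progenitors of 34 and Paneth cells of 23.

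**Figure D2:**
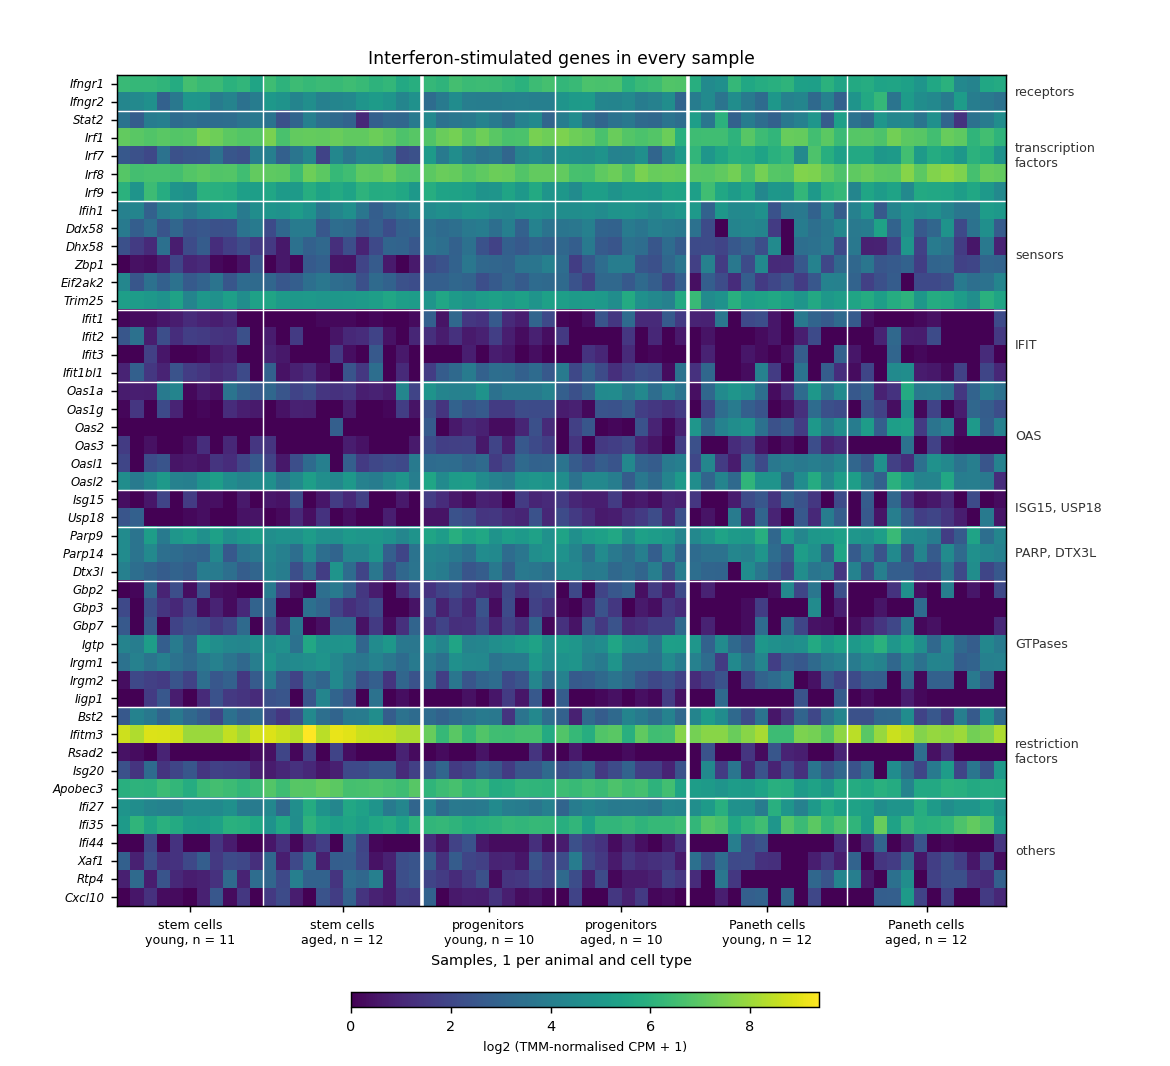
Log2 of TMM-normalised CPM plus 1 (colour) for the 46 members (rows, grouped by role) in the 67 samples (columns, grouped by cell type and age; thick white lines part the cell types). Ifitm3, Irf1, Irf8 and Ifi35 are bright in every column, the IFIT rows and the OAS rows other than Oasl2 are dark in most ISC columns, and Paneth columns vary most between neighbours.

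Summed over the 46 members, ISC samples held 1116 ± 109 CPM in young (range 929 to 1264, n = 11) and 1274 ± 203 in aged mice (993 to 1746, n = 12). Progenitors held 1008 ± 106 and 1007 ± 89.2 CPM (n = 10 and 10), and Paneth cells 1080 ± 132 and 1171 ± 182 (n = 12 and 12). Without the 3 members of the highest mean the Paneth sums were 666 ± 92.2 and 653 ± 116 CPM, which turns their direction, and those of ISCs 521 ± 46.2 and 601 ± 84.7. The ranges of the ages overlapped in all 3 cell types. The sample with the highest sum, 1746 CPM, was aged male ISC sample 4, which also had the highest Ifitm3. Members of at least 5 CPM in a group varied between animals with a median coefficient of variation of 31.2% in young and 36.0% in aged ISCs, 27.9% and 35.6% in progenitors, and 52.2% and 55.9% in Paneth cells.

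Whether the set differs between old and young animals was asked first in ISCs. Of 39 members measured there, meaning that they passed the filter on low counts, 1 was called and it rose: Apobec3, a cytidine deaminase that edits the DNA copies of retroviruses. Across all 11958 genes tested, 42 were called (0.351%), 34 of them higher (0.284%). An unadjusted p below 0.05 was found for 7 of the 39 members, 6 of them with a positive log2 fold change, where 8.9% of all genes had one. The median log2 fold change of the 39 members was 0.14 against -0.00 for all genes, and 26 of 39 were above 0 against 49.7% of genes. DESeq2 and limma-voom each called 1 member as well.

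Apobec3 (ENSMUSG00000009585, chromosome 15, 79891659 to 79915906, plus strand, GRCm38), whose promoter window is shown above, had a lowest, median and highest value of 55.4, 74.0 and 94.0 CPM in the 11 young ISC samples. In the 12 aged ISC samples these were 86.6, 110 and 141 CPM. All 12 aged samples were above the median of the young ones and 10 were above the highest young sample, so the ranges overlap only at their edges. The means were 74.7 ± 12.5 and 110 ± 17.2 CPM, with a log2 fold change of 0.53 ± 0.11 (SE; 1.44-fold, edgeR adjusted p = 0.00883). In males alone the log2 fold change was 0.71 ± 0.15 (edgeR adjusted p = 0.0227) and in females alone 0.34 ± 0.15 (adjusted p = 0.671), and the difference between the sexes did not pass the test (0.36 ± 0.21, adjusted p = 0.781). Apobec3 was also the member called in males alone, where 0.209% of genes were called and DESeq2 called 2 members and 88 of 11958 genes. In females alone edgeR and DESeq2 called 0 members and 0.0753% of genes were called by edgeR. There 2 of 39 members had an unadjusted p below 0.05, against 6.48% of genes, and in males 8 of 39, against 9.01%.

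The ISC sample names end in 1, in 2 or in no number, a division the labels do not explain. Among names ending in 1, the 6 young samples had 55.4 to 94.0 CPM of Apobec3 and the 7 aged ones 96.4 to 141 CPM, with no overlap. Among names without a number, 5 young samples had 70.7 to 85.8 CPM and 2 aged ones 86.6 and 123 CPM. The 3 samples with the ending 2 were all aged. With the ending as a term in the fit the log2 fold change was 0.61 (adjusted p = 0.00326). The ISC sample with the most immune marker counts, aged female 2 at 291 CPM, had 105 CPM of Apobec3, and without it the log2 fold change was 0.52 (adjusted p = 0.0155). In young ISCs 14 of the 32 immune markers were at 0 in every sample and in aged ISCs 15, among them the pan-leukocyte gene Ptprc. The others had reads, 4 of them in young and 6 in aged ISCs at a mean of at least 1 CPM. The highest means were those of Lck in young (4.85 CPM) and Igkc in aged ISCs (13.9 CPM). The part of immune cells in the value of Apobec3 was not tested. Apobec3 overlaps 2 other gene models. Cbx7, on the other strand, had a log2 fold change of 0.15 ± 0.14 in ISCs (adjusted p = 0.829) and D730005E14Rik, on the same strand, -0.00 ± 0.35 (adjusted p = 0.999). No source used here says whether the authors counted by strand, and 5.01% of the 50-base stretches at the 3′ ends of Apobec3 transcripts also occur in D730005E14Rik.

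**Figure D3:**
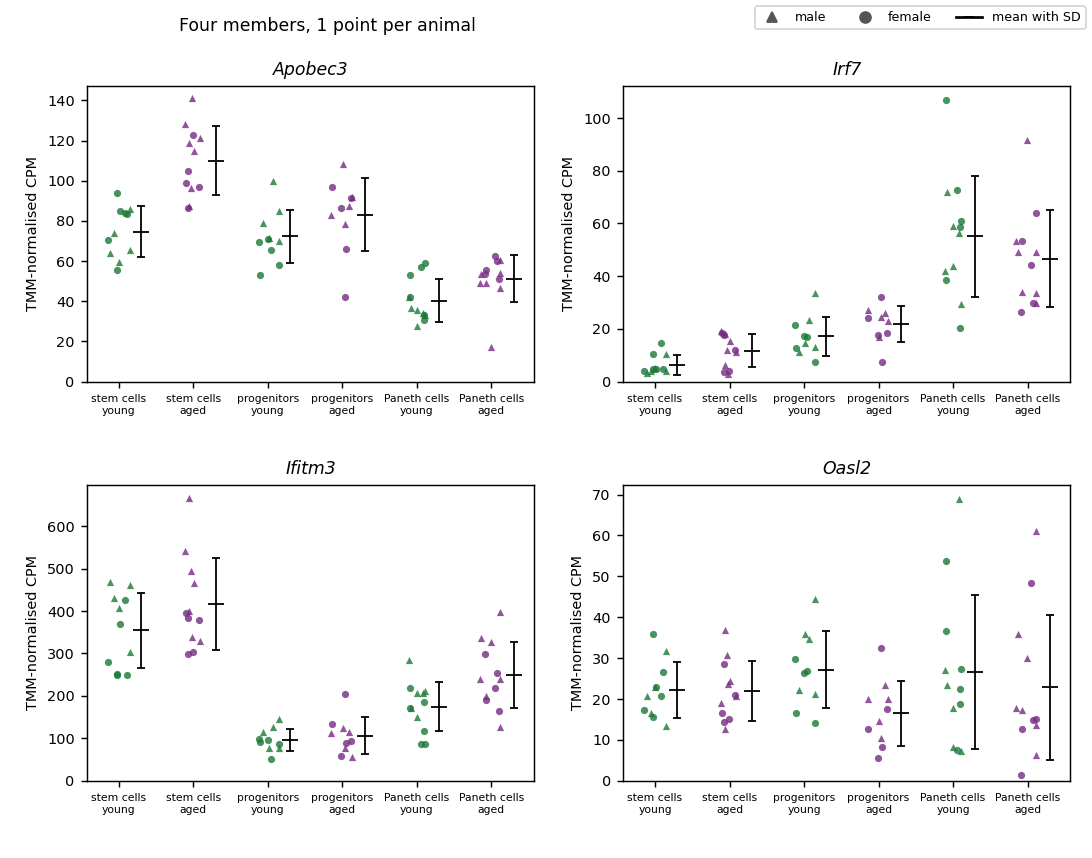
TMM-normalised CPM (y axis, from 0) of Apobec3, Irf7, Ifitm3 and Oasl2 in each animal by cell type and age (x axis; triangles male, circles female, green young, purple aged), with the mean and SD beside each group. In ISCs 10 of 12 aged samples exceed the highest young sample for Apobec3, and the other panels show overlapping ages.

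In progenitors and Paneth cells Apobec3 was also higher on average in aged mice, but neither difference passed the test. The progenitor values were 53.1, 70.4 and 99.9 CPM (lowest, median, highest) in young and 42.0, 86.9 and 109 in aged mice (log2 fold change 0.20 ± 0.12, edgeR adjusted p = 0.702). In Paneth cells they were 27.6, 36.0 and 58.9 CPM in young and 17.3, 53.6 and 62.5 in aged mice (0.34 ± 0.21, adjusted p = 0.811). In Paneth cells 11 of 12 aged samples were above the young median, and the twelfth, aged male 5, had the lowest value of all. The age effect did not differ by a called amount between cell types: no member was called for a difference of age effects between progenitors and ISCs, Paneth cells and ISCs, or Paneth cells and progenitors by edgeR, with unadjusted p below 0.05 for 3 of 44, 4 of 46 and 1 of 44 members and 0 called by DESeq2. Of all genes 0.0158%, 0% and 0% were called in these comparisons and 4.79%, 6.23% and 5% had an unadjusted p below 0.05. For Apobec3 the effect in progenitors less that in ISCs had an unadjusted p of 0.0491 (adjusted p = 1.00 to 2 decimals).

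No member was called with age in progenitors, where 86 of 11812 genes were (0.728%), and none in Paneth cells, where 8 of 11663 were (0.0686%). In progenitors 41 members were measured, 2 of them had an unadjusted p below 0.05 in the edgeR test against 9.06% of genes, and DESeq2 and limma-voom called 0. In Paneth cells 40 members were measured, 2 had an unadjusted p below 0.05 against 6.83% of genes, and both other tools called 0. The median log2 fold change of members was -0.07 in progenitors and -0.06 in Paneth cells, against 0.00 and 0.01 for all genes. The mitochondrial share of Paneth counts also differed by age, 61.6 ± 6.74% in young and 51.6 ± 10.9% in aged mice (n = 12 and 12), and on library totals the median of all genes moved to 0.24 with age in Paneth cells, so the Paneth values by age are relative to the median gene and the part of that share in them was not tested. A difference of the age effect between males and females was called for no member in ISCs, progenitors or Paneth cells by edgeR. Unadjusted p below 0.05 for that difference was found for 3, 2 and 2 members, against 7.01%, 6.19% and 5.32% of genes, and 0 genes of any kind were called. DESeq2 called 0 members in each.

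**Figure D4:**
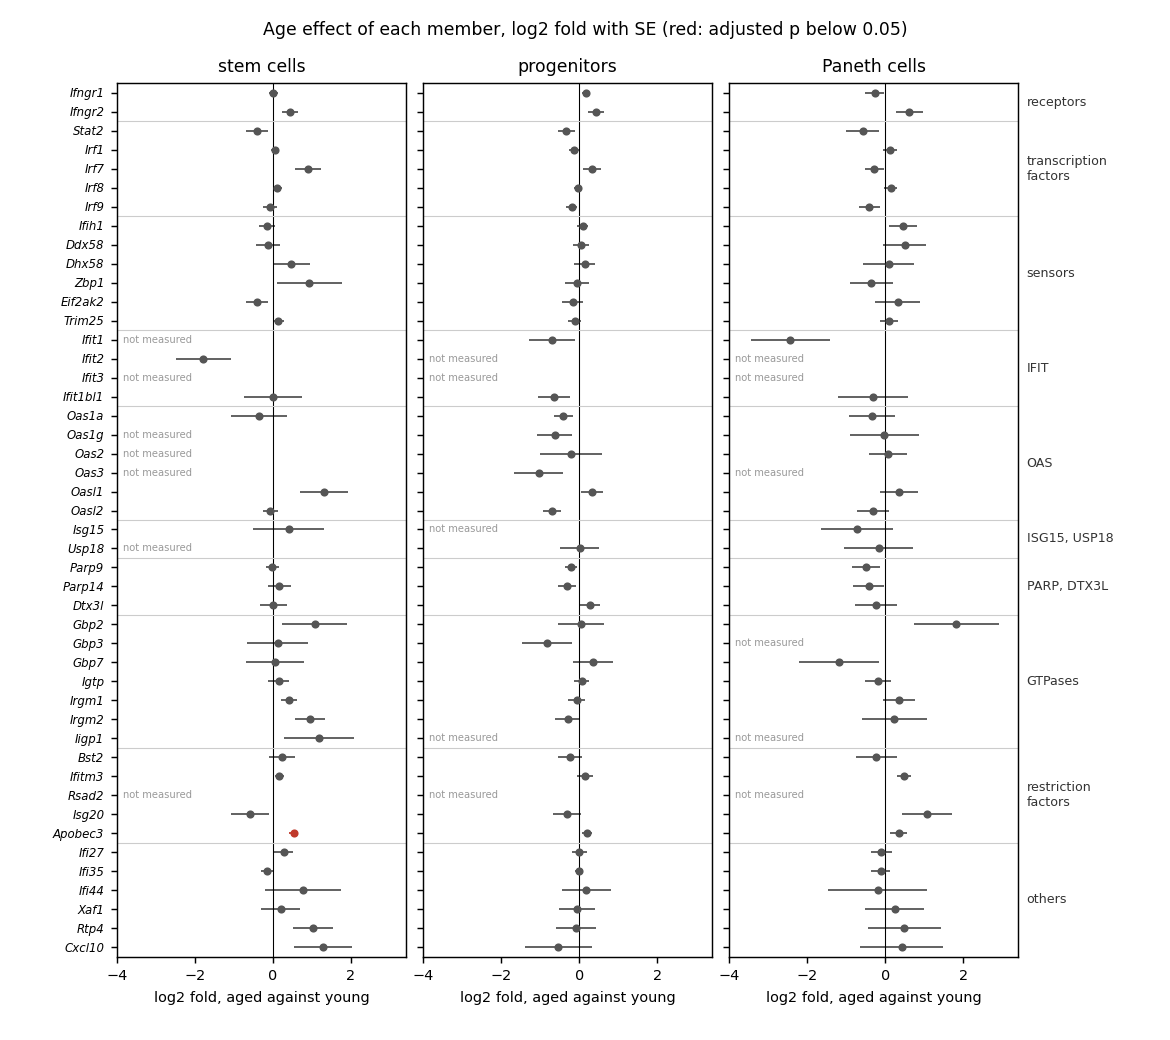
Log2 fold change of aged against young animals with its SE (x axis) for each member (rows, grouped by role) in ISCs, progenitors and Paneth cells. The only red point, past an adjusted p of 0.05, is Apobec3 in ISCs at 0.53; bars are widest for members with few counts.

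The receptors gave the same sign in each cell type for 1 chain. Ifngr2, the signalling chain of the gamma receptor, had 18 ± 7.43 CPM in young and 24.1 ± 6.07 in aged ISCs, 15.3 ± 3.27 and 21.4 ± 8.70 in progenitors, and 15.7 ± 6.92 and 27.4 ± 19.1 in Paneth cells. Its log2 fold changes were 0.43 ± 0.21, 0.43 ± 0.20 and 0.62 ± 0.34, with edgeR adjusted p of 0.546, 0.500 and 0.774. In ISCs 11 of 12 aged samples were above the young median, while 2 were above the highest young sample. In Paneth cells the highest sample, at 74.9 CPM, was an aged one. Ifngr1, the ligand-binding chain, had log2 fold changes of -0.00, 0.18 and -0.27, none past the threshold.

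Among the transcription factors, Irf7, the regulator that amplifies type I interferon responses, came nearest to a call in ISCs. Its lowest, median and highest values were 3.13, 4.75 and 14.6 CPM in young and 2.7, 12.0 and 19.3 in aged ISCs. Of 12 aged samples 9 were above the young median and 5 above the highest young sample, but the 4 lowest aged samples had 2.7 to 6.30 CPM, and the log2 fold change of 0.89 ± 0.34 had an unadjusted p of 0.0119 and an edgeR adjusted p of 0.379. In progenitors it was 0.33 ± 0.22 (17.2 ± 7.45 and 21.7 ± 6.85 CPM) and in Paneth cells -0.28 ± 0.25 (55.1 ± 23.0 and 46.6 ± 18.5 CPM). Irf1, a factor induced by gamma interferon, had 131 ± 19.6 and 137 ± 20.5 CPM in young and aged ISCs, 138 ± 27.0 and 128 ± 35.6 in progenitors and 101 ± 27.4 and 113 ± 29.6 in Paneth cells. Irf8, better known from blood cells, had 110 ± 15.5 and 119 ± 25.4, 136 ± 13.2 and 136 ± 26.4, and 139 ± 31.6 and 155 ± 37.7 CPM. For Stat2 and Irf9, whose products act together at response elements, all 6 log2 fold changes were below 0, from -0.07 to -0.58, and none was called.

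No sensor of RNA or DNA was called with age. Ifih1, which encodes the long double-stranded RNA sensor MDA5, had log2 fold changes with age of -0.15, 0.09 and 0.46 in that order of cell types from ISCs to Paneth cells, and Ddx58, which encodes RIG-I, -0.12, 0.04 and 0.49. The related regulator Dhx58 had 0.47, 0.14 and 0.09. Zbp1, a sensor of Z-form nucleic acid, had 1.03 ± 1.41 CPM in young and 1.88 ± 2.42 in aged ISCs, and its log2 fold changes were 0.93 ± 0.82, -0.05 ± 0.30 and -0.35 ± 0.55. Eif2ak2, the kinase PKR that stops translation, had -0.42, -0.17 and 0.32, and Trim25, a ubiquitin ligase that acts on RIG-I, 0.14, -0.12 and 0.10.

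The IFIT genes, whose proteins bind viral RNA, were scarce, and all 6 of their measured log2 fold changes with age were below 0. In ISCs Ifit2 had 2.94 ± 2.86 CPM in young and 0.794 ± 0.861 in aged mice, with 4 of 11 young samples above the highest aged one (log2 fold change -1.79 ± 0.70, unadjusted p = 0.0148, edgeR adjusted p = 0.397). Ifit1, whose promoter window shown above holds 2 ISRE-type matches, had 36 counts over 9 of the 11 young ISC samples and 5 counts over the 12 aged ones, and was too low to be tested there. In progenitors it had 3.61 ± 2.89 and 2.52 ± 2.81 CPM (-0.69 ± 0.59), and in Paneth cells 4.61 ± 4.65 and 0.793 ± 1.74 (-2.44 ± 1.01, unadjusted p = 0.0202, adjusted p = 0.587). The Paneth counts of Ifit1 were uneven between technical libraries of 1 animal: in the 9 animals with at least 10 counts, a median of 93.3% came from 1 library. Ifit1bl1, a relative of Ifit1, had log2 fold changes of -0.01, -0.65 and -0.31, and 9.09% of its 3′ 50-base stretches are shared with Ifit1bl2. Ifit3, of which 14.9% are shared with Ifit3b, was not measured for age in any cell type.

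In the OAS family, enzymes and relatives that sense double-stranded RNA and activate the ribonuclease RNase L, values with age in progenitors were mostly below 0. Oasl2 had a lowest, median and highest value of 14.1, 26.6 and 44.4 CPM in young and 5.69, 16.1 and 32.4 in aged progenitors. One of the 10 aged samples was above the young median and 3 of the 10 young samples above the highest aged one. The log2 fold change was -0.71 ± 0.23 (unadjusted p = 0.00448, edgeR adjusted p = 0.215), the smallest p of the set in progenitors. The highest aged value belonged to aged female 5, and without that sample the log2 fold change was -0.95 and Oasl2 was called (adjusted p = 0.0138). Leaving out the highest aged value must deepen a decrease, so that call adds no support. Over the 20 fits without 1 sample the log2 fold change ran from -0.95 to -0.60. The edgeR adjusted p ran from 0.0138 to 0.369, and 1 fit gave a call. In ISCs the Oasl2 difference was -0.07 ± 0.20 and in Paneth cells -0.31 ± 0.41. The other log2 fold changes in progenitors were -0.40 ± 0.25 for Oas1a, -0.63 ± 0.44 for Oas1g, -0.21 ± 0.80 for Oas2, -1.04 ± 0.63 for Oas3 and 0.33 ± 0.27 for Oasl1. Oasl1, which restrains the translation of Irf7, had 2.07 ± 1.74 CPM in young and 5.25 ± 4.97 in aged ISCs (1.31 ± 0.61, unadjusted p = 0.0397, adjusted p = 0.527), with 4 of 12 aged samples above the highest young one. Oas1a and Oas1g share 56.1% and 42.4% of their 3′ 50-base stretches with each other and the same promoter matches, so reads may have been split between them.

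Isg15 and its protease Usp18 had log2 fold changes with age from -0.73 to 0.40 where measured, with SE of at least 0.51. The ADP-ribosylation partners Parp9 and Dtx3l, which overlap on opposite strands, and Parp14 had values from -0.49 to 0.27, and none was called.

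The GTPases of the GBP and IRG families, which gather at the vacuoles of intracellular pathogens, had 7 measured members in ISCs, and all 7 log2 fold changes were above 0 (median 0.41), with none called. Irgm2 had 3.94 ± 2.65 CPM in young and 7.99 ± 5.59 in aged ISCs, and 10 of 12 aged samples were above the young median (0.94 ± 0.39, unadjusted p = 0.0202, edgeR adjusted p = 0.437). In males alone its log2 fold change was 2.06 ± 0.57 and in females alone -0.18 ± 0.55, and the difference between the sexes was not called (2.24 ± 0.78, adjusted p = 0.571). Irgm1 had 12.3 ± 3.09 and 18 ± 6.48 CPM (0.41 ± 0.20), Gbp2 1.56 ± 2.51 and 4.46 ± 5.18 (1.07 ± 0.83), and Iigp1 1.62 ± 1.64 and 4.49 ± 5.53 (1.19 ± 0.90). Igtp, Gbp3 and Gbp7 had 0.14, 0.12 and 0.05. In progenitors 3 of 6 measured GTPases had a value above 0 and in Paneth cells 3 of 5, and the difference between cell types was not called for any of them. Gbp2 in Paneth cells had 3.34 ± 6.37 and 3.81 ± 7.98 CPM with a fitted log2 fold change of 1.82 ± 1.10, which rests on a few samples with reads, 20.4 CPM in a young and 25.3 in an aged one at the highest. Igtp and Irgm2 overlap on the same strand, and their reads may not be separable.

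Among the membrane and other restriction factors, Ifitm3, which blocks the fusion of virus with endosomes, had the smallest p of the set in Paneth cells. Its lowest, median and highest values there were 85.7, 179 and 286 CPM in young and 127, 240 and 397 in aged mice. Of 12 aged samples 10 were above the young median and 4 above the highest young one, and the log2 fold change was 0.49 ± 0.17 (175 ± 58.3 and 249 ± 78.1 CPM, unadjusted p = 0.00776, edgeR adjusted p = 0.440). In ISCs it was 0.16 ± 0.11 (354 ± 89.2 and 416 ± 109 CPM) and in progenitors 0.14 ± 0.20 (96.1 ± 26.7 and 106 ± 43.1 CPM). Some 14% of its 3′ 50-base stretches are shared, among others with Ifitm1 and Ifitm2. Bst2, which tethers budding virions, had 0.23, -0.23 and -0.23 in ISCs, progenitors and Paneth cells. Isg20, an exonuclease for RNA, had -0.59 ± 0.48, -0.31 ± 0.36 and 1.07 ± 0.64, the last from 5.80 ± 6.16 and 12.3 ± 11.9 CPM. Rsad2, which encodes viperin, was too low to be tested for age in all 3 cell types. Of the others, Ifi27, Ifi35, Ifi44, Xaf1, Rtp4 and the chemokine Cxcl10, none was called, and in ISCs 5 of the 6 values were above 0, the largest being Cxcl10 at 1.28 ± 0.75 and Rtp4 at 1.03 ± 0.52.

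Cell types differed far more than ages. At both ages Irf7, Zbp1, Ifit1, Oas1a, Oas1g, Oas2 and Ifi35 were called higher in progenitors than in ISCs and Ifitm3 lower, and Paneth cells had the highest mean Irf7 and Oas2 and the lowest mean Apobec3. Among these progenitor calls, only those of Irf7, Zbp1 and Ifitm3 were also made at both ages with the animal as a block, a fit described below. In young mice 22 of the 46 members had their highest mean in Paneth cells, 15 in progenitors and 9 in ISCs, and in aged mice 18, 12 and 16. The share of all genes highest in each cell type was not computed, so this ranking is not a result about the members. It also takes in members below the detection level and rests on the scaling treated below. Progenitors against ISCs gave 15 called of 44 measured members in young mice (34.1%), where 36.9% of all genes were called, 14 higher (18.4% of genes) and 1 lower. Paneth cells against ISCs gave 16 of 46 (34.8%), where 24.4% of genes were called, 11 higher (14.7% of genes) and 5 lower. Paneth cells against progenitors gave 7 of 44 (15.9%), where 22.7% of genes were called, 4 higher (13.5% of genes) and 3 lower. In aged mice the called members were 17 of 44 (12 higher, 38.6%, the same as for all genes at 38.6%), 13 of 46 (8 higher, 28.3% against 24.4%) and 8 of 44 (5 higher, 18.2% against 21.1%). Of all genes 19.2%, 15.2% and 13.1% were called higher in these comparisons of aged mice. Called with the same sign at both ages were 8 members for progenitors against ISCs (53.3% of those called in young, 47.1% of those in aged mice), 10 for Paneth cells against ISCs (62.5% and 76.9%) and 6 for Paneth cells against progenitors (85.7% and 75%).

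These comparisons depend on how libraries are scaled. The mitochondrial share given above differed between Paneth libraries and the others, and its part in this was not tested. Without scaling beyond library totals, the median of all genes in young mice shifted to -1.86 for Paneth cells against ISCs, to -1.71 against progenitors and to -0.16 for progenitors against ISCs, and the called members then split into 2 higher and 28 lower against ISCs and 1 higher and 33 lower against progenitors. In these fits 11036 of 12863 genes were called against ISCs, 437 of them higher, and 10289 of 12589 against progenitors, 289 of them higher. In aged mice these medians were -1.61, -1.45 and -0.18, and the Paneth calls split into 2 higher and 26 lower and 1 higher and 30 lower, where 10541 and 9613 genes were called, 525 and 358 of them higher. All directions below are relative to the median gene. Part of the animals gave more than 1 cell type, 10 of 33 for progenitors and ISCs, 15 of 32 for Paneth cells and ISCs and 14 of 30 for Paneth cells and progenitors. With the animal as a block, which rests on those shared animals alone, 4, 4 and 6 members were called in young mice: Ifitm3, Irf7, Zbp1 and Igtp for progenitors against ISCs, Irf7, Oas2, Ifitm3 and Apobec3 for Paneth cells against ISCs, and Ifngr1, Irf7, Oas2, Ifitm3, Apobec3 and Ifi27 for Paneth cells against progenitors. In these fits 20.3%, 12.5% and 19.2% of all genes were called, against 36.9%, 24.4% and 22.7% without the block. The block kept 3 of the 15 calls for progenitors against ISCs in young mice and 4 of the 16 for Paneth cells against ISCs, so every other call given below for these comparisons in young mice, those of Ifit1, Dhx58, Irf8, Oas1g, Irgm1 and Parp9 among them, was not made with it. Igtp was not called without the block. In aged mice the block kept 6 of 17, 9 of 13 and 6 of 8 calls, and 24.5%, 20.2% and 12.8% of all genes were called. For progenitors against ISCs it lost Irf9, Apobec3, Ifngr1, Ifih1, Oas3, Rtp4, Ifit1, Ddx58, Oas1a, Ifi27 and Oas1g, and added Igtp and Ifit1bl1. For Paneth cells against ISCs it lost Ifit1, Isg20, Irf8 and Oas1g, and against progenitors Isg20 and Iigp1. Calls of Zbp1 and Gbp7 were added for Paneth cells against ISCs.

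The ending of the sample names also moves with the cell type: the 10 names of young progenitors have no number, and young ISCs have 6 names ending in 1 and 5 without a number. Those 5 are the young ISC samples that share an animal with progenitors, so the 6 others add nothing to the block there. For this pair in young mice the animal block and the ending are therefore not separate checks. The number at the end of a Paneth name is that of the technical library, another division than the ending of ISC names. With the ending as a term, a fit chosen after seeing the data, 13 members were called for progenitors against ISCs in young mice, where 27.1% of genes were. Of the 15 calls without the term 9 were kept, and Ifi35, Dhx58, Oasl1, Irgm1, Oas1g and Irgm2 were lost. Ifngr1, Usp18, Isg20 and Igtp were added. In aged mice 12 members were called, where 29.9% of genes were, and 10 of the 17 calls were kept. Irf9, Ifih1, Oas3, Ddx58, Oas1a, Ifi27 and Oas1g were lost there, and Isg20 and Igtp were added. Paneth names carry no such ending, so for Paneth cells a fit with the term does not test it.

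**Figure D5:**
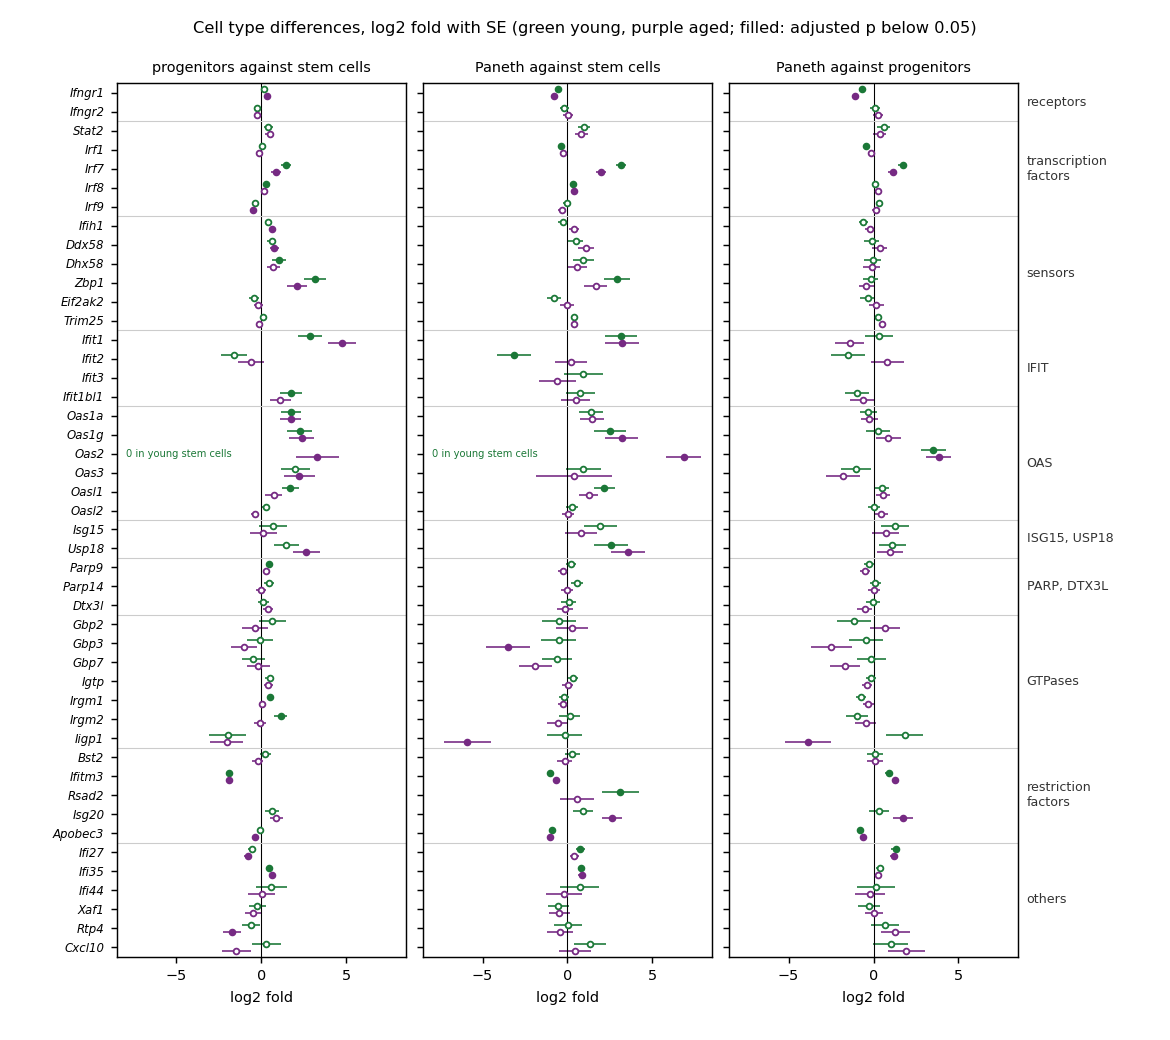
Log2 fold change between cell types with its SE (x axis) for each member (rows, grouped by role), in young (green) and aged (purple) mice, filled where the adjusted p is below 0.05. Irf7, Zbp1, Ifit1 and Oas2 lie to the right against ISCs, Ifitm3 lies to the left at about -1.9 for progenitors, and Oas2 in young mice has no fold against ISCs because all 11 young ISC samples were at 0.

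Irf7 was ordered ISCs, progenitors, Paneth cells from low to high, at both ages. In young mice its values (lowest, median, highest) were 3.13, 4.75 and 14.6 CPM for ISCs, 7.54, 15.8 and 33.6 for progenitors and 20.2, 57.5 and 107 for Paneth cells. No young Paneth sample fell into the range of young ISCs, while progenitors overlapped both. The log2 fold changes were 1.44 ± 0.31 for progenitors against ISCs (edgeR adjusted p = 0.000139), 3.15 ± 0.32 for Paneth cells against ISCs (adjusted p = 3.75e-12) and 1.73 ± 0.26 for Paneth cells against progenitors (adjusted p = 5.41e-07), the last of which was -0.0009 without scaling beyond library totals. In aged mice they were 0.88 ± 0.29, 2.00 ± 0.30 and 1.13 ± 0.25, all called. Of the other factors, Irf8 was called higher in young progenitors (0.30 ± 0.11) and young Paneth cells (0.35 ± 0.14) than in ISCs. Irf1 was called lower in young Paneth cells than in ISCs (-0.38 ± 0.13, adjusted p = 0.0301), a call lost with the animal as a block (-0.40, adjusted p = 0.148). Stat2 and Irf9 were not called in young mice.

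The Paneth samples that stood highest for Irf7 were young female 4 at 107 CPM and aged male 5 at 91.8 CPM. Young female 4 had the highest summed tuft cell markers of the 24 Paneth samples, 1636 CPM, and aged male 5 the highest summed immune markers, 580 CPM, and the lowest tuft markers, 210 CPM. In Paneth samples 22 of 32 immune markers in young and 23 in aged mice had a mean of at least 1 CPM, with immunoglobulin kappa (Igkc) highest at 29.3 and 40.5 CPM, against 4 and 6 of 32 in ISCs. The part of these other cells in the Paneth levels of Irf7, Oas2 and the other members was not tested.

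Oas2, a 2-5A synthetase, had no count in any of the 11 young ISC samples and in aged ISCs 40 counts, all in aged male 6 (6.12 CPM), the sample with the lowest summed immune markers of all ISCs. Young progenitors had 0, 0.876 and 5.43 CPM (lowest, median, highest) and young Paneth cells 2.17, 15.6 and 31.1, so no young Paneth sample was at 0. Against a floor of 3 counts per ISC library, 0.348 to 0.700 CPM, young Paneth cells at 16.4 ± 10.5 CPM were at least 32.6-fold higher and young progenitors at 1.43 ± 1.78 CPM at least 2.84-fold higher, and edgeR called both (adjusted p = 1.44e-07 and 0.000769). Paneth cells exceeded progenitors by a log2 fold change of 3.51 ± 0.73 (adjusted p = 0.000254). In aged mice the difference from progenitors was 3.83 ± 0.75 (adjusted p = 0.000105). Against aged ISCs, where a single sample had reads, it was 6.85 ± 1.04 for Paneth cells (adjusted p = 2.6e-06) and 3.29 ± 1.27 for progenitors (adjusted p = 0.0358).

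Other OAS genes also had more reads outside the stem cells. In young mice Oas1a was 1.75 ± 0.61 higher in progenitors than in ISCs on the log2 scale (17.4 ± 5.64 against 5.16 ± 6.30 CPM, edgeR adjusted p = 0.0226), and the ISC values ran from 0.138 to 17.6 CPM around a median of 0.711. The 6 young ISC samples with a name ending in 1 had 0.138 to 0.711 CPM of Oas1a and the 5 without a number 4.86 to 17.6 CPM, with no overlap, and Oas1a was 1 of 2 such members among the 39 measured (5.13%, against 3.29% of genes; the other was Ifngr1). With the ending as a term the difference of Oas1a between progenitors and ISCs was 0.76 ± 0.29 (adjusted p = 0.0437). Oasl1 was 1.71 ± 0.52 higher in young progenitors (adjusted p = 0.00746) and 2.18 ± 0.60 higher in young Paneth cells (adjusted p = 0.00438) than in ISCs. With the animal as a block, Oas1a (0.63, adjusted p = 0.347) and Oasl1 (1.40, adjusted p = 0.124 and, for Paneth cells, 1.40, adjusted p = 0.321) were not called. Oas1g was called higher in both cell types, at 2.26 ± 0.72 and 2.49 ± 0.95, and with the ending as a term it was 1.00 ± 0.79 in progenitors (adjusted p = 0.380). Of 6 OAS genes measured in young mice, 4 were called higher in progenitors and 3 in Paneth cells than in ISCs, and Oasl2 was called in neither.

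The IFIT genes and the nucleic acid sensors followed for some members. Ifit1 had 0.521 ± 0.440 CPM in young ISCs, 3.61 ± 2.89 in progenitors and 4.61 ± 4.65 in Paneth cells, and was called higher in both (2.86 ± 0.71 and 3.14 ± 0.96). Ifit2 went the other way: young ISCs had 2.94 ± 2.86 CPM and Paneth cells 0.431 ± 0.947, 14 counts in all, a called difference of -3.14 ± 1.01. Zbp1 was called higher in young progenitors (8.79 ± 3.92 CPM, log2 fold change 3.15 ± 0.66) and Paneth cells (7.75 ± 7.03 CPM, 2.92 ± 0.74) than in ISCs (1.03 ± 1.41 CPM). Dhx58 was called higher in young progenitors (1.02 ± 0.40), while Ifih1 and Ddx58 were called higher in aged ones (0.62 ± 0.18 and 0.77 ± 0.26). Neither of these aged calls was made with the animal as a block. With the ending as a term they were not made either (0.41 and 0.63, both edgeR adjusted p = 0.114). Eif2ak2 and Trim25 were called in no comparison of progenitors or Paneth cells with ISCs. Rsad2, at 0.160 ± 0.289 CPM in young ISCs from 10 counts, was called higher in young Paneth cells (3.12 ± 1.11). Of the 69 Paneth libraries of both ages, 11 held any count of it.

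Ifitm3 was the member that ISCs held most of. Young ISC samples had 249, 369 and 468 CPM (lowest, median, highest), young progenitors 52.3, 93.1 and 146 and young Paneth cells 85.7, 179 and 286. The ISC and progenitor ranges did not overlap, and Paneth cells lay between with overlap to both. The log2 fold changes were -1.92 ± 0.18 for progenitors against ISCs (edgeR adjusted p = 1.75e-11), -1.05 ± 0.15 for Paneth cells against ISCs (adjusted p = 1.49e-07) and 0.89 ± 0.19 for Paneth cells against progenitors (adjusted p = 0.000256). The last turned to -0.85 without scaling beyond library totals, where the median gene was at -1.71. In aged mice the 3 values were -1.93 ± 0.18, -0.70 ± 0.15 and 1.25 ± 0.19, all called.

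Apobec3 was lowest in Paneth cells. The young means were 74.7 ± 12.5 CPM for ISCs, 72.2 ± 13.4 for progenitors and 40.3 ± 10.6 for Paneth cells, with log2 fold changes of -0.89 ± 0.15 against ISCs (edgeR adjusted p = 4.58e-06) and -0.80 ± 0.16 against progenitors (adjusted p = 0.00016). Young ISCs and progenitors did not differ by a called amount. In aged mice progenitors were called lower than ISCs (-0.40 ± 0.11, adjusted p = 0.00377), a call not made with the animal as a block. Ifngr1 was called lower in young Paneth cells than in ISCs (-0.53 ± 0.18) and progenitors (-0.66 ± 0.19), and the former call was lost with the animal as a block (-0.67, adjusted p = 0.0826). Ifngr2 was called in no comparison of cell types.

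Among the GTPases, Irgm2 and Irgm1 were called higher in young progenitors than in ISCs, at 1.14 ± 0.37 and 0.53 ± 0.20, and no GTPase was called between young Paneth cells and ISCs. Both calls were lost with the animal as a block (Irgm2 0.47, adjusted p = 0.587) and with the ending as a term. Igtp, not called without these terms, was called higher in progenitors with each of them at both ages. With the ending as a term it was 0.80 in young and 0.77 in aged mice (edgeR adjusted p = 0.034 and 0.033). In aged mice Iigp1 and Gbp3 were called lower in Paneth cells than in ISCs (-5.90 ± 1.39 and -3.49 ± 1.29), where Iigp1 had 3 counts over the 12 Paneth samples and 4.49 ± 5.53 CPM in ISCs. Of the remaining members, Ifi35 was called higher in young progenitors (0.47 ± 0.14) and young Paneth cells (0.81 ± 0.22) than in ISCs, at 69.3 ± 6.77, 86.3 ± 29.5 and 48.9 ± 12.3 CPM. The Paneth difference of Ifi35 was not called with the animal as a block (0.82, adjusted p = 0.0616) and was -1.03 without scaling beyond library totals. Ifi27, a small membrane protein gene, was called higher in young Paneth cells (34.4 ± 15.9 CPM) than in progenitors (14.3 ± 3.35 CPM; 1.3 ± 0.24, adjusted p = 3.86e-05) and ISCs (20.1 ± 4.61 CPM; 0.76 ± 0.27, adjusted p = 0.0286). Without scaling beyond library totals the difference from progenitors was -0.47. Parp9 was called higher in young progenitors (0.47 ± 0.16), and Parp14, Dtx3l, Bst2, Xaf1, Ifi44 and Cxcl10 in no comparison of cell types at either age.

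Progenitors differ from ISCs in more than these genes. Summed goblet cell markers were 8739 to 27248 CPM in young progenitor samples against 384 to 1579 in young ISC samples, and summed enterocyte markers 398 to 755 against 50.3 to 105 CPM, and the part of these lineages in the higher antiviral genes of the progenitor gate was not tested. Summed immune markers overlapped between these gates, at 6.62 to 15.7 CPM in young progenitors and 6.04 to 38.6 in young ISCs.

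Of other genes of the pathway, the 13 interferon ligands listed had 12 counts in all over the 67 samples, Ifnk 6, Ifng 3, Ifnz 2 and Ifnab 1, and none was measured. The 15 receptors and relay genes outside the set, such as Ifnar1 and Jak1, were all measured, and 0 were called with age in each cell type by edgeR. Unadjusted p below 0.05 was found for 1, 0 and 1 of them in ISCs, progenitors and Paneth cells, where 8.9%, 9.06% and 6.83% of all genes were below it. DESeq2 called 1, 0 and 0 of them, where it called 106 of 11958, 142 of 11812 and 29 of 11663 genes. Of 15 measured genes of nucleic acid sensing outside the set, 0 were called, with 3, 1 and 1 below an unadjusted p of 0.05 and 0 called by DESeq2 in each, while limma-voom called 1 in Paneth cells, where it called 14 of 11663 genes. Of 62 further interferon-stimulated genes found, 37, 38 and 33 were measured and 1, 2 and 1 were called, all higher, where 0.351%, 0.728% and 0.0686% of all genes were called. Ly6e was listed with its age change in these data already known. These were Ly6e, an interferon-inducible surface protein, in each cell type, and Psmb8, a subunit of the immunoproteasome, in progenitors (324 ± 65.1 to 550 ± 160 CPM, 0.76 ± 0.12, edgeR adjusted p = 0.000917). Summed enteroendocrine markers also differed by age in progenitors, 185 ± 79.0 CPM in young and 464 ± 214 in aged mice, with 1 of 7 called higher, and their part in the value of Psmb8 was not tested. Ly6e rose from 222 ± 33.2 to 718 ± 99.3 CPM in ISCs (1.68 ± 0.09), from 338 ± 39.3 to 697 ± 95.7 in progenitors (1.03 ± 0.09) and from 390 ± 112 to 777 ± 95.2 in Paneth cells (0.98 ± 0.13). The median log2 fold change of these further genes was 0.17, -0.02 and 0.14 in the 3 cell types, in the same order.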

How the data were processed

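RNA of sorted cells (1 ng per library) was read at its 3′ ends by SC3-seq on a NextSeq 500, per the labels' protocols. The authors deposited raw counts per gene and the CPM made from them; the submitters' processing notes name cutadapt 3.0, STAR 2.7.9a, HTSeq 0.13.5, DESeq2 1.30.1 and mm10, with no annotation release. The deposited CPM equalled counts divided by library totals to within 4.95e-10. Only the counts were used. The 69 Paneth libraries were summed per animal, which gave 67 samples from 112 libraries of 1.08 to 7.57 M counts. A name marked as a second sample of an aged male was kept as a sample of its own and counted as an animal of its own. If both names are the same male, more animals are shared between cell types than counted here. An aged female is labelled 24 months in its ISC sample and 23 months in its progenitor and Paneth samples. Where nothing in the labels says that animals were kept apart, p-values measure the spread between these samples. Of 32285 identifiers, 32158 had a symbol.

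Members and lists were chosen with earlier results of these data known. Tests used edgeR 4.0.16 (R 4.3.3; quasi-likelihood F test, TMM, filterByExpr with a minimum count of 10), fitted over all genes within a cell type with groups by age and sex, or within a pair of cell types, with Benjamini-Hochberg adjusted p below 0.05 as a call. Alternatives were DESeq2 1.42.0, limma-voom 3.58.1, other scaling and filters, single sexes, replicate and animal blocks, and each sample left out. Members given in full were those called with age or for a difference of age effects, the 6 with the smallest age p in each cell type, the 4 called members of at least 5 CPM with the largest change in each direction between young cell types, and the 4 of highest mean CPM in each cell type. Further members were named to account for the set, some of them chosen after their values were seen. The scripts were tested on simulated data. Coordinates of genes are GENCODE M21, GRCm38. Levels and floors (3 counts) carry counting error only, without molecular identifiers.

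Same-numbered young and aged samples did not deviate together (median r 0.037, -0.00713 and 0.013 in ISCs, progenitors and Paneth cells). Samples of 1 animal did (0.115, 0.0922 and 0.0925 for the 3 pairs of cell types), with the animal taken from the sample names.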

Additional observations from a re-analysis of the deposited data

Results flagged for a closer look

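In 13 of 124 pairs of a gene with a group of 1 sex, age and cell type, 1 sample stood apart by Dixon's 95% criterion. The groups held 5 to 7 samples. That criterion is made for normally distributed values, and some of these groups were at 0 in all but the flagged sample. No rate by chance is therefore set beside the 13. The flagged samples in ISCs were Irf7 in young male 4 (10.49 CPM, next 5.066), Oasl1 in aged female 5 (13.56, next 3.692) and Irf8 in young male 1 (120.2, next 99.35). In progenitors it was Ifitm3 in young female 5, the lowest at 52.33 CPM (next 86.67). The other 9 were Paneth samples. Ifit1 stood out in aged female 5 (3.264 CPM, next 0), aged male 1 (5.475, next 0.3556) and young male 3 (12.04, next 3.783). Gbp2 stood out in aged female 1 (14.95 CPM, next 3.047), aged male 5 (25.28, next 1.615) and young male 2 (0.8521, next 0). Ifngr2 stood out in aged female 2 (35.48 CPM, next 14.66), Ifi35 in aged male 3 (147.6, next 83.15) and Apobec3 in aged male 5, the lowest at 17.29 (next 46.8). Paneth aged male 5 also had the highest summed immune markers, 580 CPM.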

How the results depend on the processing

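Over 1369 recalculations for single genes, 1326 kept their direction and their side of the threshold, 31 fell below it, 2 rose past it and 10 changed sign. Of the 1369, 1031 only left out 1 sample or animal. The age effects among the 1369 were not called to begin with, except that of Apobec3 in ISCs. The number of members called with age in ISCs was 1 in 11 of 12 alternatives and 0 in females alone, and 1 with any sample left out. In progenitors it was 0, except 1 (Oasl2, -0.80, adjusted p = 0.0427) with the replicate block and 0 to 1 when leaving out each sample. In Paneth cells it was 0 throughout. With the animal as a replicate block, 4 and 8 members were called for progenitors against ISCs in young and aged mice and 4 for Paneth cells against ISCs in young mice. On library totals 30 and 28 were called for Paneth cells against ISCs and 34 and 31 against progenitors. A mean of 5 CPM left 24 members detected in ISCs and 28 in Paneth cells. Signs changed for Irgm2 in ISCs (females alone -0.18), Oas1a in progenitors (0.024 without the animals of 26 and 27 months, 0.020 in females alone), Ifngr2 in Paneth cells (-0.12 with technical library 1 only) and Gbp2 there (-0.14 with limma-voom, -0.82 in females alone). On library totals they changed for Ifi35 against ISCs (-1.03) and, against progenitors, Irf7 (-0.0009), Ifi27 (-0.47) and Ifitm3 (-0.85). The cause was not tested. The term for the ending of sample names was chosen after seeing the data.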
